A study of Homo sapiens with 6 samples.

Results

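The β1,4-galactosyltransferases B4GALT1 to B4GALT6 were followed in HCT-15 cells, an established human colon cancer line, with and without 5-aza-2'-deoxycytidine. The drug replaces cytosine in newly made DNA and traps the enzymes that copy methylation marks. The 6 genes were found through the RefSeq transcript in the name of each probe set, and each had 1 probe set, so that they made up 6 of the 1259 probe sets and 6 of the 927 genes that could be named. Total RNA was measured on 3 arrays of cells treated with 5-aza-2'-deoxycytidine and 3 arrays of untreated cells. The sources used here do not state the dose or the duration. Separate cultures are not named for the replicates, so the p-values measure only how far these arrays spread, which may be technical. Untreated replicate 3 is untreated by its source name and treatment entry but treated by its title. That title also says control, as do the titles of the treated arrays. The B4GALT changes and pair differences are therefore also given without untreated replicate 3. The counts of rises and falls in the 8 lists of related genes described further on were the same without it, except for 3 rises in place of 2 among the capping transferases.

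β1,4-Galactosyltransferases are Golgi enzymes that move galactose from UDP-galactose onto a terminal sugar of a growing glycan. On N-acetylglucosamine this makes N-acetyllactosamine, the backbone that sialyltransferases and fucosyltransferases turn into sialyl Lewis x, a ligand of E-selectin. On glucosylceramide it makes lactosylceramide, the root of most glycosphingolipids. The submitters asked how genes of glycan synthesis change when the drug raises sialyl Lewis x on these cells.

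Of the 6 genes, 1 rose in treated cells, 1 fell and 4 did not pass the test. B4GALT1, a broadly expressed N-acetyllactosamine synthase, was 1.29-fold higher in treated cells. B4GALT2, its close relative, was 1.25-fold lower. In RNA of a whole culture, fewer cells that express a gene and less of its RNA per cell cannot be told apart. B4GALT3, B4GALT4, B4GALT5 and B4GALT6 had an adjusted p above the threshold. Calls were made with limma and Benjamini-Hochberg adjustment over all 1259 probe sets, at an adjusted p under 0.05. Of all probe sets 34.8% were called, 18.0% as rises and 16.8% as falls, so 2 of 6 is a share near that of the whole array. The log2 changes of the 6 genes lay between -0.32 and 0.37 with a median of 0.02, beside a median of -0.01 over all probe sets. Their median absolute change was 0.10 on the log2 scale, against 0.15 for all probe sets.

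Arrays within a group, untreated replicate 3 included, correlated at 0.9974 to 0.9987 over all probe sets, and arrays across the groups at 0.9817 to 0.9844. Array medians lay between 5.81 and 5.92, and the number of arrays limits the precision. With median centring of the arrays, the calls over all probe sets split into 197 rises and 311 falls, against 227 and 211 in the deposited values. Of 9 colon epithelial markers 3 were on the array: the galectin LGALS4 averaged 9.03 in treated and 9.54 in untreated cells, the mucin MUC13 8.93 and 7.97, and the goblet cell mucin MUC2 5.67 and 5.57. Markers of leukocytes had 1 rise and 1 fall among 5 measured, those of endothelium 1 rise among 3 and those of fibroblasts 1 rise among 3. Their part in the results was not tested.

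The first 4 genes are best known for making N-acetyllactosamine. B4GALT1, which also makes lactose in the mammary gland together with α-lactalbumin, gave log2 values of 9.59, 9.53 and 9.79 on the treated arrays, against 9.44, 9.22 and 9.15 on the untreated arrays. All 3 treated values were above all 3 untreated values, and the nearest were those of treated replicate 2 and untreated replicate 1. The means were 9.64 ± 0.14 in treated and 9.27 ± 0.15 in untreated cells (SD, n = 3 each). The log2 change was 0.37 ± 0.10 (SE), with an interval of 0.15 to 0.58 at 95% confidence and an adjusted p of 0.0128 in limma. Without untreated replicate 3 the change was 0.31 (limma adjusted p = 0.0473), and without untreated replicate 2 it was 0.34 and no longer called (limma adjusted p = 0.0536). B4GALT1 also missed the threshold after quantile normalization (change 0.35, limma adjusted p = 0.0629). Changes at least as large as that of B4GALT1, in either direction, were seen in 24.1% of all probe sets.

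B4GALT2, an N-acetyllactosamine synthase of the same subgroup, gave 8.02, 8.17 and 7.91 on the treated arrays, against 8.33, 8.34 and 8.37 on the untreated arrays. The untreated values lay close together, and every treated value was below them. The treated mean was 8.03 ± 0.13 and the untreated mean 8.35 ± 0.02 (SD, n = 3 each). The log2 change of B4GALT2 was -0.32 ± 0.08 (SE), with an interval of -0.49 to -0.14 and an adjusted p of 0.00976 in limma. It stayed called without each array in turn, with changes of -0.39 to -0.26, and without untreated replicate 3 it was -0.30 (limma adjusted p = 0.0282). After quantile normalization it was -0.24 and missed the threshold (limma adjusted p = 0.0648).

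B4GALT3, an N-acetyllactosamine synthase that acts on N-glycans, gave 8.33, 8.40 and 8.45 on the treated arrays, against 8.61, 8.51 and 8.49 on the untreated arrays. Its groups did not overlap, with treated values below untreated ones, but the gap between treated and untreated replicate 3 was small. The log2 change was -0.14 ± 0.07 (SE, interval -0.30 to 0.01, limma adjusted p = 0.152), or 0.905-fold with an interval of 0.811 to 1.01. After median centring B4GALT3 was called, with a change of -0.21 (limma adjusted p = 0.0399). Without untreated replicate 3 the change was -0.17 (limma adjusted p = 0.157). B4GALT1, B4GALT2 and B4GALT3 were the 3 of 6 genes whose groups did not overlap, and 46.1% of all probe sets did likewise.

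B4GALT4, which prefers sulfated N-acetylglucosamine and takes part in keratan sulfate synthesis, gave 7.97, 7.89 and 7.68 in treated cells, against 7.62, 7.97 and 7.78 in untreated cells. The groups overlapped throughout, and untreated replicate 2 and treated replicate 1 were the highest arrays, at nearly the same value. The log2 change of B4GALT4 was 0.06 ± 0.10 (SE), and the fold was 1.04 with an interval of 0.886 to 1.22 (limma adjusted p = 0.741). Without untreated replicate 3 the log2 change was 0.05.

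The lactosylceramide synthases are B4GALT5 and B4GALT6. B4GALT5 gave 8.67, 8.51 and 8.55 in treated cells, against 8.50, 8.73 and 8.53 in untreated cells. Both the highest and the lowest array were untreated. Its log2 change was -0.01 ± 0.08 (SE), and the fold was 0.991 with an interval of 0.871 to 1.13 (limma adjusted p = 0.931). B4GALT6, the second synthase, gave 5.997, 5.93 and 5.75 in treated cells, against 5.87, 5.82 and 5.83 in untreated cells. Here the highest and the lowest array were both treated, and the untreated values lay inside that range. The log2 change of B4GALT6 was 0.05 ± 0.08 (SE), and the fold was 1.04 with an interval of 0.916 to 1.17 (limma adjusted p = 0.697). Without untreated replicate 3 the log2 changes were -0.04 for B4GALT5 and 0.05 for B4GALT6. The intervals of both genes take in no change as well as modest changes in either direction. Of all probe sets 49.6% had a mean at or below that of B4GALT6.

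**Figure D1:**
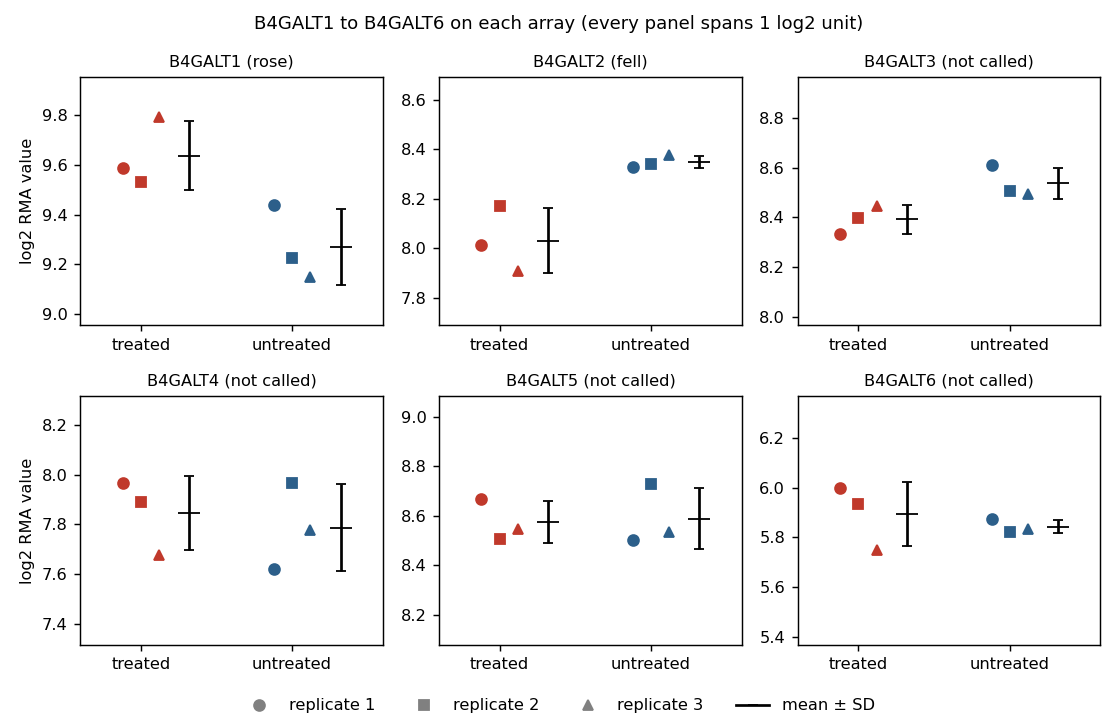
Log2 RMA values (y axis, 1 log2 unit in every panel) of B4GALT1 to B4GALT6 on each array, with treated cells left of untreated cells; points are arrays, marked by replicate number, and bars are the mean ± SD of 3 arrays. Treated points lie above all untreated points for B4GALT1, below them for B4GALT2 and B4GALT3, and among them for B4GALT4 and B4GALT5. For B4GALT6 they lie on both sides of the untreated points.

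The plot of values by array shows that the spread differed between genes and groups. The SD of the untreated arrays was 0.02 for B4GALT2 and 0.03 for B4GALT6, and 0.17 for B4GALT4. Among the treated arrays the SD ran from 0.06 for B4GALT3 to 0.15 for B4GALT4. The limma fit shares information on spread over all probe sets, and without that step neither B4GALT1 (adjusted p = 0.104 in the ordinary test) nor B4GALT2 (adjusted p = 0.0518) was called.

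**Figure D2:**
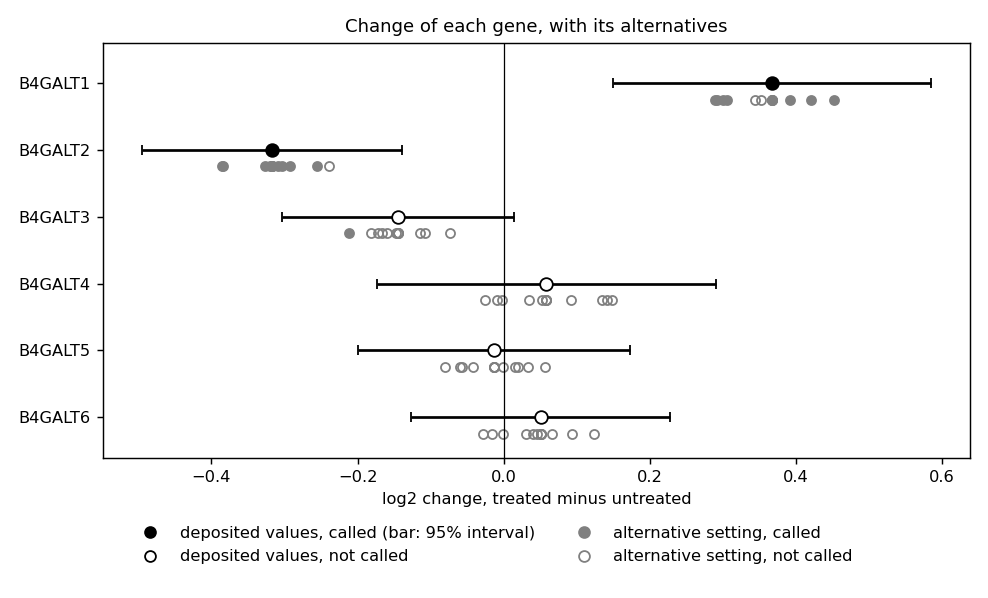
Log2 change of each gene, treated minus untreated (x axis): black points with bars are the deposited values with their 95% interval, grey points are the 13 alternative settings, and filled points are called at an adjusted p under 0.05. All alternatives of B4GALT1 lie above 0 (0.29 to 0.45) and all of B4GALT2 below 0 (-0.39 to -0.24), while those of B4GALT4, B4GALT5 and B4GALT6 lie on both sides.

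Differences between 2 genes on the same array do not move when that array is shifted as a whole. They were taken for 3 pairs of close relatives, with exact two-sided permutation tests over the arrays, which with 3 against 3 cannot give a p below 0.1. B4GALT1 minus B4GALT2 was 1.57, 1.36 and 1.88 on the treated arrays, against 1.11, 0.88 and 0.77 on the untreated arrays, on the log2 scale. Every treated array showed a wider difference than every untreated array. This had to follow, because B4GALT1 was higher and B4GALT2 lower on every treated array than on any untreated array. The mean was 1.61 ± 0.26 in treated and 0.92 ± 0.17 in untreated cells (SD, n = 3 each), a change of 0.68, which is a 1.61-fold shift of B4GALT1 relative to B4GALT2. The exact p was 0.1, the smallest this design allows, and 0.3 after adjustment over the 3 pairs. That p was set by the values of the 2 single genes and is no separate support. Without untreated replicate 3 the change was 0.61, and over the arrays left out in turn it was 0.54 to 0.81.

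B4GALT3 minus B4GALT4 was 0.37, 0.51 and 0.77 in treated cells, against 0.99, 0.54 and 0.72 in untreated cells, and the groups overlapped. Its change was -0.20 (exact p = 0.4, adjusted 0.6 over the 3 pairs), and -0.22 without untreated replicate 3. B4GALT5 minus B4GALT6 was 2.67, 2.57 and 2.80 in treated cells, against 2.63, 2.91 and 2.70 in untreated cells. These groups overlapped too, with a change of -0.06 (exact p = 0.6, adjusted 0.6), and of -0.09 without untreated replicate 3. The absolute size of such a difference also holds the unequal response of the probes of 2 genes, so only its change between groups can be read.

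**Figure D3:**
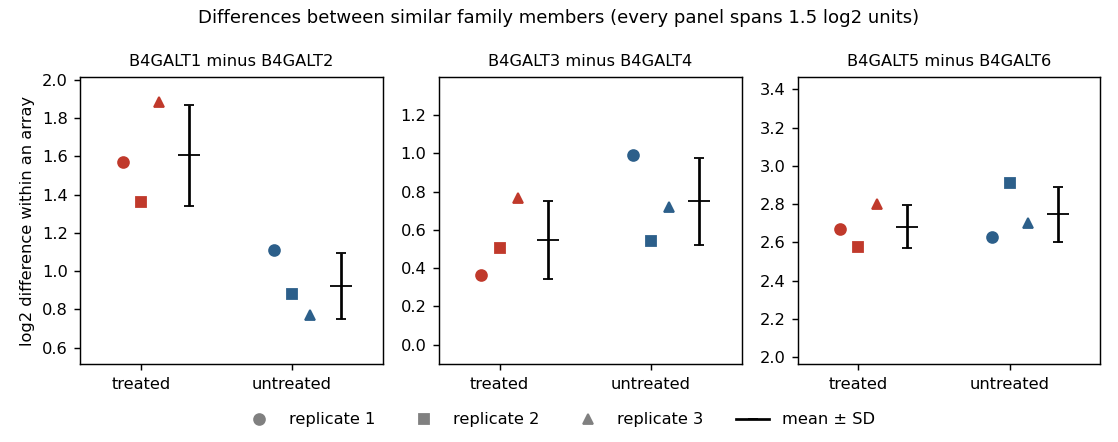
Log2 difference between the values of 2 relatives on the same array (y axis, 1.5 log2 units in every panel), treated left of untreated; points are arrays and bars the mean ± SD of 3 arrays. The groups are apart for B4GALT1 minus B4GALT2 (means 1.61 and 0.92) and overlap for the other pairs.

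Promoter sequences are shown for B4GALT1, which rose, B4GALT2, which fell, and B4GALT5, which was not called, because the drug acts on the methylation of cytosines in the dinucleotide CG. Each is the 250 bases before a transcript start in RefSeq (build GRCh38.p14), read 5′ to 3′ on the strand of the gene, with every CG in capitals. The B4GALT1 window lies on the minus strand at chr9:33167337-33167586, that of B4GALT2 on the plus strand at chr1:43979687-43979936, and that of B4GALT5 on the minus strand at chr20:49713879-49714128. B4GALT1 and B4GALT2 each have 2 listed starts, and the one further upstream is printed. Both printed windows lie inside the annotated span of their gene, because other annotated transcripts begin still further upstream, and exons and introns were not used here.
B4GALT1: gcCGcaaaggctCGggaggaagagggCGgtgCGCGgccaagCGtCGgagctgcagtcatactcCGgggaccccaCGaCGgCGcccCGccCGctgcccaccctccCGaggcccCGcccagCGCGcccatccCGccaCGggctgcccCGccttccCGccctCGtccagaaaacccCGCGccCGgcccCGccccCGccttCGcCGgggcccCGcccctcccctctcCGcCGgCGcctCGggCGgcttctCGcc
B4GALT2: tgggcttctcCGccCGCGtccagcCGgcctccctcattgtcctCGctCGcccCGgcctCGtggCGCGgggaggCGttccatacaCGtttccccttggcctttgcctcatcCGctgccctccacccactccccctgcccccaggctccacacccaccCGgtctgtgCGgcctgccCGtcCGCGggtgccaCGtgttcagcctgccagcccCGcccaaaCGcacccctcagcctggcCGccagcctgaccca
B4GALT5: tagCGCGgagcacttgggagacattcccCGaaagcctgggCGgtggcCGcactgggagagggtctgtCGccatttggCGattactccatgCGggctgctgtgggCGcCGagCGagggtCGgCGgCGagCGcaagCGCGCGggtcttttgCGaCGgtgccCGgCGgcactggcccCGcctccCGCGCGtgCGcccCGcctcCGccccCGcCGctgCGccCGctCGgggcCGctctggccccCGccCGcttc

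The B4GALT1 window holds 36 CG, and 4.85% of the 35116 promoter windows in the RefSeq table hold as many or more. The B4GALT2 window holds 22 (28.0% of windows hold as many or more), and the B4GALT5 window holds 37 (3.998%). The median over all windows is 11. B4GALT1, which rose, and B4GALT5, whose values overlapped between groups, thus have nearly the same number. The B4GALT4 window holds 26 (19.6%), and the 2 windows of B4GALT3 hold 17 and 6. The second starts of B4GALT1 and B4GALT2 have 30 and 5, and B4GALT6 had no entry. The GC box, searched as GGGCGG on both strands and itself holding a CG, occurred 7 times before the upstream start of B4GALT1, 2 times in the B4GALT2 window and 3 times in the B4GALT5 window. At least 1 such match is found in 42.64% of all windows, and 7 or more in 1.12%. Methylation of these bases was not measured, and a match is a description of letters only.

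The other genes around these enzymes moved in both directions. They were taken from lists of pathway members, chosen with earlier results of these data known. Over all named genes 37.3% were called, 19.7% as rises and 17.6% as falls, and the median log2 change was -0.004. For the supply of UDP-galactose, the donor that all 6 enzymes use, 0 of 6 genes reported rose and 3 fell in limma, with 0 rises by unadjusted p below 0.05 or by the ordinary test, and 1 rise after quantile normalization. The median log2 change of these 6 was -0.37. PGM1, phosphoglucomutase, was 1.64-fold lower, GALT, which forms UDP-galactose in the Leloir pathway, 1.62-fold lower and GALK1, galactokinase, 1.35-fold lower (limma adjusted p = 1.28e-05, 2.69e-05 and 0.00826). GALK1 missed the threshold in the ordinary test (adjusted p = 0.0956), where the list had 2 falls. Falls numbered 4 after median centring, with array weights and without treated replicate 3. SLC35A2, the Golgi carrier of UDP-galactose, averaged 9.06 in treated and 8.92 in untreated cells and was not called (limma adjusted p = 0.165), except after quantile normalization (limma adjusted p = 0.0366).

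In the list of other galactosyltransferases 2 of 10 measured genes rose and 4 fell, with a median log2 change of -0.14. C1GALT1C1, which it also holds, is a chaperone of C1GALT1 and no transferase, and it was not called. B4GALT7, which acts on xylose in the linkage of glycosaminoglycans to their core proteins, gave 7.27, 7.39 and 7.19 in treated cells, against 7.64, 7.58 and 7.76 in untreated cells, without overlap. Its log2 change was -0.37 ± 0.08 (SE, limma adjusted p = 0.0041). Of the same list B3GALT6, B3GALT4 and UGT8 were 1.71-fold, 1.67-fold and 1.41-fold lower, and C1GALT1, the core 1 O-glycan enzyme, was 1.63-fold higher, each with a limma adjusted p of 0.00118 or less. Without treated replicate 1 the list had 1 rise.

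The list of lactosamine chains and branches, in the main enzymes that add the N-acetylglucosamine acceptors of β1,4-galactosylation, had 4 rises and 4 falls among 12 genes (median log2 change -0.03). B4GAT1, which it also holds, is a glucuronyltransferase that makes no such acceptor, and it was not called (log2 change -0.18). B3GNT2, which alternates with β1,4-galactosyltransferases in building polylactosamine, was 1.87-fold higher, and GCNT3 1.45-fold higher, while GCNT1 was 1.64-fold and B3GNT9 1.6-fold lower (limma adjusted p of 0.000742 or less). Median centring gave 3 rises and 6 falls in this list, and quantile normalization 3 and 5. Among 7 MGAT genes, listed under N-glycan antennae, 1 rose and 0 fell (median log2 change 0.14). Their falls also numbered 0 by unadjusted p below 0.05 in limma and in the ordinary test. The rise was MGAT5B, 1.16-fold, at a limma adjusted p of 0.049, and it was called in 4 of 13 alternatives. The list had 0 rises without treated replicate 3, without untreated replicate 2 and after median centring. It also had 0 with an intensity trend, with the replicate block and in the ordinary test. Of 3 β1,4-N-acetylgalactosaminyltransferases, B4GALNT2, B4GALNT3 and B4GALNT4, 0 were called, 0 had an unadjusted p under 0.05 in limma and 0 passed in the ordinary test. Their log2 changes lay between -0.03 and -0.01.

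Of 13 transferases that cap N-acetyllactosamine 2 rose and 4 fell (median log2 change -0.01). ST6GAL1 was 1.62-fold and ST3GAL6 1.35-fold higher, and FUT2 was 1.88-fold and ST3GAL3 1.7-fold lower (limma adjusted p of 0.0025 or less). The probe sets of ST6GAL1 and ST3GAL6 are dim, with 31.5% and 4.69% of all probe sets at or below their mean, and with the dimmest probe sets left out this list had 0 rises and 4 falls because neither was tested. It had 2 rises and 6 falls after median centring, and 2 and 5 after quantile normalization. Its falls numbered 3 with the replicate block and in the ordinary test. They also numbered 3 without treated replicate 1 or 2 and without untreated replicate 1 or 2. Its rises numbered 3 with array weights, without treated replicate 3 and without untreated replicate 3. On the glycolipid side of B4GALT5 and B4GALT6, 2 of 7 genes reported rose and 0 fell, with a median log2 change of 0.14. Among these 7 are the degrading enzymes GLB1 and GALC. B3GNT5 and A4GALT are also among them, and both are counted in lists above as well. At an unadjusted p under 0.05 in limma 1 gene, GALC, was lower, and 0 in the adjusted ordinary test. UGCG, which makes the glucosylceramide that both enzymes use, was 1.51-fold higher (7.57 ± 0.14 in treated and 6.98 ± 0.15 in untreated cells, SD, n = 3 each). A4GALT, which extends lactosylceramide, was 1.22-fold higher. Their limma adjusted p-values were 0.000672 and 0.0108, and A4GALT missed the threshold without treated replicate 1 (limma adjusted p = 0.0563). These 7 genes had 2 rises and 2 falls after median centring, 2 and 1 after quantile normalization, and 1 fall without treated replicate 1 and without untreated replicate 1.

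Among 9 galectins, lectins that bind the β-galactosides made by these enzymes, 3 rose and 2 fell (median log2 change -0.01). LGALS1 was 3.2-fold higher and LGALS8 2.25-fold lower, while LGALS4 was 1.42-fold lower. LGALS7, which has a near-identical gene copy, was 4.19-fold higher. These 4 genes had a limma adjusted p of 0.000291 or less. Median centring and quantile normalization each gave 2 rises and 3 falls among the galectins. Rises also numbered 2 with the replicate block, in the ordinary test, without treated replicate 2 or 3 and without untreated replicate 2.

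**Figure D4:**
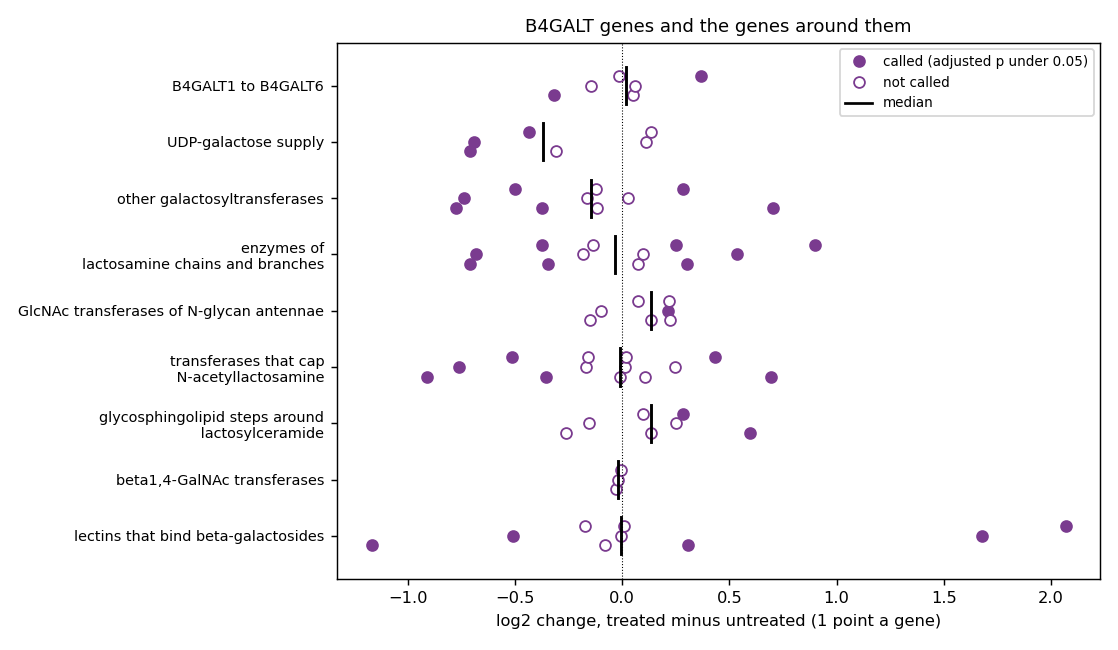
Log2 change of each measured gene, treated minus untreated (x axis), for B4GALT1 to B4GALT6 and 8 lists around them; filled points are called at an adjusted p under 0.05, open points are not, and vertical bars are medians. The B4GALT genes lie between -0.32 and 0.37, and the UDP-galactose list has the lowest median (-0.37).

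The genes with the pattern most like B4GALT1 and B4GALT2 over the 6 arrays were sought among 921 other genes, with each gene's values set against its own untreated mean. For B4GALT1, NOTCH1 ranked second (root mean square difference 0.050 on the log2 scale), with a log2 change of 0.42. For B4GALT2 the nearest were FIBP (0.037) and EPO (0.040), with log2 changes of -0.34 and -0.29. EPO is dim, with means of 4.91 in treated and 5.20 in untreated cells. The nearest of 921 genes over 6 arrays will differ little in any case, and these likenesses were not tested.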

How the data were processed

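Biotin-labelled total RNA of HCT-15 cells was measured on 6 arrays with an Affymetrix protocol, as the labels' protocols say. The log2 values deposited by the authors, 1 column per array for 1259 probe sets, were made with RMA per the submitters' processing notes. That they are log2 was read from their range, 2.13 to 13.67. The sources used here state neither the settings of RMA nor the platform or a build. RMA forces arrays toward one distribution and compresses dim probe sets. The columns of values left unused numbered 0.

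RefSeq transcripts in probe set names were looked up, version removed, in a RefSeq gene table (GRCh38.p14, names only): 1043 probe sets had 1 symbol and 216 stayed unnamed. An unnamed probe set could still belong to a B4GALT gene. For 93 genes with several probe sets the brightest stood for the gene. The 6 B4GALT names end in _at or _a_at, which do not mark binding to other genes. Those of B4GALT7, A4GALT, UGT8, B3GNT9, GCNT1, ST3GAL6, FUT2, B4GALNT4 and GLB1 end in _s_at or _x_at, which mark sets able to bind several transcripts or genes.

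Groups came from source names, 3 treated and 3 untreated. All 1259 probe sets were fitted with limma 3.58.1 (R 4.3.3, lmFit and eBayes, two-sided), with Benjamini-Hochberg adjustment. The steps were run on simulated data with larger changes than those of the B4GALT genes, which cannot judge calls of their size. Errors beside changes are standard errors. Alternatives were quantile normalization, median centring, leaving out dim probe sets (839 stayed), an intensity trend, array weights, a block for the replicate number, single arrays left out, and an ordinary equal-variance test. At most 5 values were identical between any 2 arrays. Named were all B4GALT genes, B4GALT7, SLC35A2 and UGCG, up to 4 called genes of each list by smallest p, MUC13 and MUC2 as markers, and the 2 genes most like each called B4GALT gene. Further members are named only to describe what a list holds. A few genes these rules name are not reported here and enter no list count. The members and lists were chosen with earlier results of these data known.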

Additional observations from a re-analysis of the deposited data

How the results depend on the processing

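The calls of B4GALT1 and B4GALT2 rest on the setting. Under quantile normalization the family had 0 rises and 0 falls (B4GALT1 0.35, limma adjusted p = 0.0629; B4GALT2 -0.24, 0.0648), and in the ordinary test likewise 0 and 0 (0.37, adjusted p = 0.104; -0.32, 0.0518), while 1 gene up was under an unadjusted p of 0.05 in each, with 1 down after quantile normalization and 2 down in the ordinary test. Median centring gave 2 falls, adding B4GALT3 (-0.21, limma adjusted p = 0.0399). With each array left out, rises numbered 0 to 1 and falls 1 to 1, and the changes were 0.29 to 0.45 for B4GALT1, -0.39 to -0.26 for B4GALT2, -0.17 to -0.11 for B4GALT3, -0.03 to 0.15 for B4GALT4, -0.060 to 0.057 for B4GALT5 and -0.0015 to 0.12 for B4GALT6. The 3 genes near 0 changed sign without ever being called: B4GALT4 after median centring (-0.0091), without treated replicate 1 (-0.0020) and without untreated replicate 1 (-0.026), B4GALT5 after quantile normalization (0.034), with array weights (0.016), without treated replicate 2 (0.020) and without untreated replicate 2 (0.057), and B4GALT6 after quantile normalization (-0.028), median centring (-0.017) and without treated replicate 1 (-0.0015). B4GALT5 minus B4GALT6 turned to 0.061 after quantile normalization and to 0.017 without untreated replicate 2, in a range from -0.12, while B4GALT1 minus B4GALT2 (0.54 to 0.81) and B4GALT3 minus B4GALT4 (-0.31 to -0.08) kept their sign. The cause of these differences was not tested. With the replicate number as a block, B4GALT1 had an adjusted p of 0.0445 and B4GALT2 of 0.0299 in limma, no call of the family changed, and 394 probe sets were called in place of 438. Same-numbered arrays deviated from their group means with correlations of -0.27, 0.04 and -0.11. Of the treated arrays, 0 of 3 correlated best with their own number. With so few arrays this cannot decide whether same-numbered samples were handled together, and the labels do not say so. Another probe set in place of the brightest could not be tried, since each B4GALT gene has 1. Signal over background was not used here, so the values of dim probe sets have no lower limit beside them.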
